A study of Mus musculus with 37 samples.

Results

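The transition from the fully grown oocyte to the 2-cell embryo was described in the control libraries of the CabZ mouse line, in which Zp3-Cre deletes exon 6 of Cabin1, a gene for a subunit of the Hira complex that places the histone variant H3.3. The comparison set 4 libraries of CabZ Het 2-cell embryos against 4 libraries of CabZ Het germinal vesicle (GV) oocytes, which are 8 of the 37 samples of the series. Genes were joined by symbol, which gave 17956 genes present in the tables of both stages. The libraries called CabZ Het carry Zp3-Cre and 1 floxed Cabin1 allele beside a wild-type allele on a C57BL/6 background, so the control oocytes have the transgene and 1 allele open to deletion. Embryos are named after the female they came from, so for 2-cell libraries this is the genotype of the mother, and that of the embryos themselves is not given in the sources used here. Whether the CabZ 2-cell embryos used for RNA were fertilised or activated without sperm is not given there either. Zp3-Cre is expressed in the female germline. The study reports that females heterozygous in this way had smaller litters than females without Zp3-Cre, so these controls are not wild type in fertility. GV oocytes came from females superovulated with PMSG. The study's methods give 10 pooled oocytes for an RNA library. How many embryos made up a 2-cell library is not given in the sources used here, and the age of the females and the separation of replicates by female are not given either. Further libraries served for comparison, namely CabZ KO (both Cabin1 alleles floxed, with Zp3-Cre) at both stages, ZH Het GV oocytes (Zp3-Cre with 1 floxed Hira allele), and GFP 2-cell embryos, which grew from GV oocytes injected with GFP RNA.

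As background, a fully grown oocyte is silent in transcription and holds a store of messenger RNA made while it grew. After meiosis resumes this maternal store is translated, shortened in its poly(A) tails and degraded, and the embryo's own genome starts to be read. In the mouse the main wave of zygotic genome activation falls at the 2-cell stage, and a group of multicopy genes, among them the Zscan4 cluster, is read briefly at that time. A comparison of GV oocytes with 2-cell embryos therefore holds loss from the maternal store and gain from the zygotic genome side by side.

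Values are given as FPKM, which divides the fragments on a gene by the length of its span and by the library's fragments on listed genes. The span includes introns, so a value can be compared between stages for 1 gene but not between genes. The libraries of CabZ Het GV oocytes held 10703482 to 12466640 estimated reads on genes (median 11095534) and those of CabZ Het 2-cell embryos 7946561 to 8238049 (median 7966021). Each stage stands in a table of its own that was normalised separately, so stage and table cannot be told apart, and no test was made of a stage difference. A gene was called higher or lower in 2-cell embryos when the means differed by at least 4-fold, the 4 libraries of each stage did not overlap and the higher mean was at least 1 FPKM. Because the span includes introns, this minimum asks more reads of a gene with a long span. Differences are also given as the difference between stage means of log2(FPKM + 1), 2-cell minus GV, with a standard error from the spread of the 4 + 4 libraries. This scale understates the change of genes with low values. Because every value is a share of a library's poly(A)-captured reads, a lower share cannot be told apart from fewer molecules, shorter tails or a larger pool of other transcripts.

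Of 8019 genes that averaged 1 FPKM or more in either stage, 1719 were called higher in 2-cell embryos (21.4%) and 1526 were called lower (19.0%). The other 4774 genes met neither rule. The median difference over all 8019 genes was −0.0005, and the groups did not overlap for 2940 genes with higher (36.7%) and 2955 genes with lower (36.8%) values in 2-cell embryos. Genes called lower took 36.2% ± 0.50 of a GV library's reads (SD, n = 4) and 3.58% ± 0.38 of a 2-cell library's reads. Genes called higher took 3.05% ± 0.083 of the reads in GV oocytes and 37.3% ± 1.95 in 2-cell embryos, of which nuclear genes took 26.8% ± 1.15. Libraries of 1 stage were much closer to each other than to the other stage. Pearson's r of log2(FPKM + 1) across genes lay between 0.981 and 0.991 within GV oocytes, between 0.950 and 0.973 within 2-cell embryos and between 0.586 and 0.628 across stages. These are correlations across genes, which are not independent replicates, and stage and table move together in them.

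**Figure D1:**
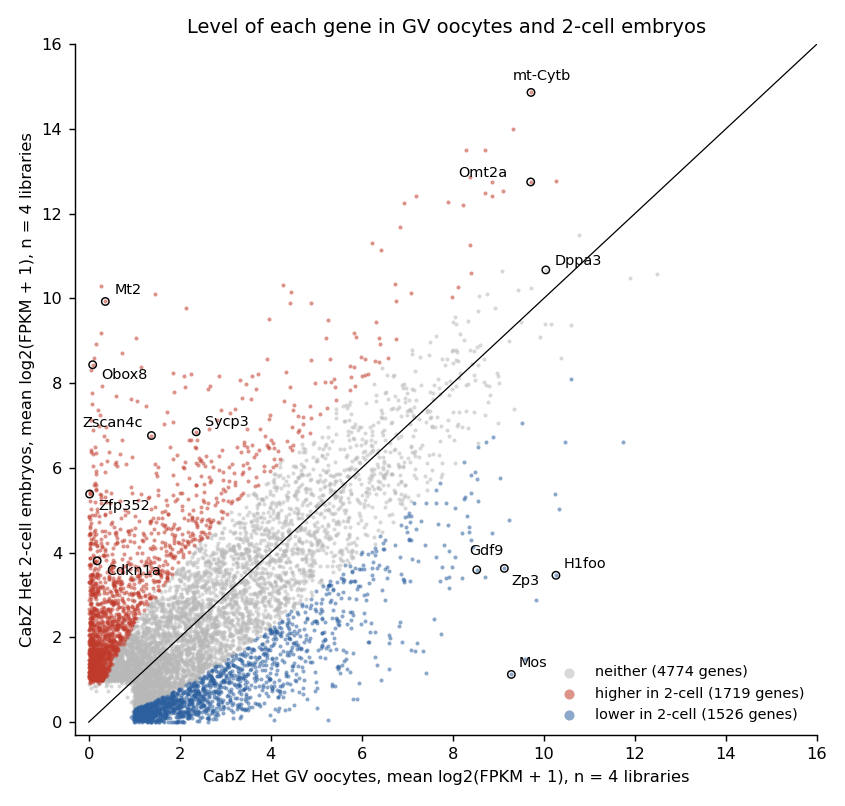
Mean log2(FPKM + 1) of each of the 8019 genes in CabZ Het GV oocytes (x axis) and CabZ Het 2-cell embryos (y axis), n = 4 libraries each, with called genes coloured and selected genes named. The 1526 genes called lower lie below the diagonal and the 1719 called higher lie above it, with Mos and H1foo among the farthest below and Mt2 and Obox8 among the farthest above.

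**Figure D2:**
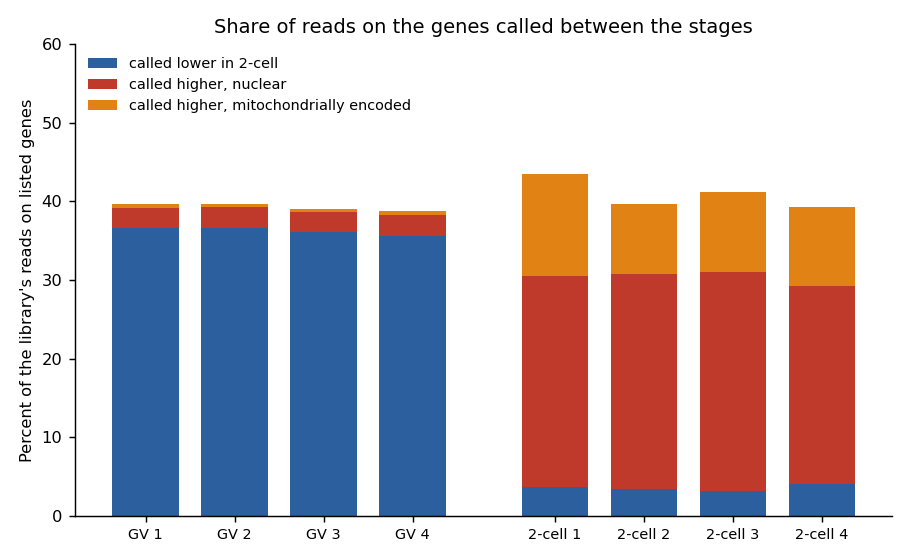
Share of each library's reads, in percent, on genes called lower, on nuclear genes called higher and on mitochondrially encoded genes called higher, as stacked bars for the 4 GV and the 4 2-cell libraries. The share of genes called lower stands between 35.6 and 36.6% in GV oocytes and between 3.16 and 4.04% in 2-cell embryos.

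Among named oocyte genes the largest loss was that of Mos, the kinase that holds the mature egg in metaphase of the second meiotic division. The 4 GV libraries held 589, 660, 656 and 588 FPKM of Mos and the 2-cell libraries 1.21, 4.69, 0.432 and 0.251 FPKM. Every 2-cell library was far below every GV library, and the means, 623 ± 40.2 and 1.65 ± 2.07 FPKM (SD, n = 4), differed by 378-fold, or −8.16 ± 0.50 on the log2 scale. H1foo, the linker histone of oocytes, held 1197, 932, 1494 and 1365 FPKM in GV oocytes and 12.5, 6.65, 6.76 and 17.5 FPKM in 2-cell embryos (115-fold lower). Gja4, the connexin of the junctions between oocyte and granulosa cells, fell from a mean of 169 ± 21.0 to 1.42 ± 1.14 FPKM. The 12 largest losses among genes with at least 10 FPKM also included Zar1, Glrx, Zp1, Zp2, Zp3, Pabpn1l, Oas1h and the gene models Gm813 and E330017A01Rik, which lie near each other on chromosome 16 and fell from 771 ± 58.7 to 2.06 ± 1.63 FPKM and from 912 ± 120 to 6.74 ± 2.95 FPKM. The log2 differences of these 12 genes lay between −8.16 and −5.35.

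Of 11 listed genes of the zona pellucida and egg coat, 10 were measured at 1 FPKM or more, 7 were called lower and none was called higher, with a median difference of −3.55. The 7 are 70% of the measured genes, and over all genes 19.0% were called lower and 21.4% higher. Zp3, a structural protein of the zona, held 692, 769, 393 and 469 FPKM in the GV libraries and 8.26, 15.8, 15.3 and 8.21 FPKM in the 2-cell libraries. No 2-cell library came near a GV library, although GV replicates 1 and 2 were higher than 3 and 4. Zp1 and Zp2 behaved likewise, at 156 ± 74.3 against 2.18 ± 0.257 FPKM and 150 ± 33.0 against 2.72 ± 0.758 FPKM. Izumo1r, which encodes the egg receptor for the sperm protein Izumo1, went from 26.8 to 0.460 FPKM, and Astl, which encodes ovastacin, the protease that cleaves the zona after fertilisation, from 11.4 to 0.102 FPKM. The coat gene Oosp1 was not called (79.4 ± 4.32 against 69.7 ± 23.7 FPKM), while its neighbour Oosp2 was (47.4 to 2.27 FPKM). Cd9, a membrane protein needed for gamete fusion, stood at 8.04 and 7.08 FPKM and met neither rule.

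The sequences before the starts of 2 lost genes, Zp3 and Nlrp5, are shown because both genes are read in growing oocytes, and E-boxes (CANNTG), the letters bound by Figla and other helix-loop-helix factors, were searched there. Each line holds the 250 bases before the RefSeq start in GRCm38.p6, 5′ to 3′, with the matches in capitals. The Zp3 stretch is chr5:135979855-135980104 on the plus strand and the Nlrp5 stretch is chr7:23385639-23385888 on the plus strand.
Zp3: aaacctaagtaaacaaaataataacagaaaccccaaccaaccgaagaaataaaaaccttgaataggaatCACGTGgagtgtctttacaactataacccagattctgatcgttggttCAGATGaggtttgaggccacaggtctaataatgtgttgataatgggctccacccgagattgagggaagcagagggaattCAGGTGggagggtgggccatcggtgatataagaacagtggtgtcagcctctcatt
Nlrp5: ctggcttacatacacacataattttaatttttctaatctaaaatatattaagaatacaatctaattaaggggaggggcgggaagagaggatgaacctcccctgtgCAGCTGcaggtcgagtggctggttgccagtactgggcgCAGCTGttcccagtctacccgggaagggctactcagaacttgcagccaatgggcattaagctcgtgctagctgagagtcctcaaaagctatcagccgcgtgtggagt
The Zp3 stretch held 3 matches, between 181 and 55 bases before the start, and the Nlrp5 stretch held 2. CANNTG reads the same on both strands and includes CACGTG as 1 of its cases. At least 1 match stood in 57.3% of the 4445 promoters of the same length that could be searched, in 63.1% of those of genes called lower and in 53.7% of those of genes called higher, and 3 or more matches stood in 6.91%, 11.3% and 4.46% of them. A match describes the letters and not a bound site.

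Oocyte growth factors and transcription factors were mostly lost. Of 17 listed genes 12 were measured, 9 were called lower (75%) and 2 were called higher (16.7%), beside 19.0 and 21.4% of all genes (median −3.91). Gdf9, a growth factor that the oocyte secretes to its granulosa cells, held 440, 377, 316 and 346 FPKM in GV oocytes and 10.6, 10.2, 9.83 and 14.1 FPKM in 2-cell embryos. Its partner Bmp15 kept more of its level, with 392 ± 149 against 37.0 ± 9.68 FPKM (10.6-fold). The homeobox factor Nobox went from 80.1 to 1.57 FPKM, Figla, the helix-loop-helix factor that activates the zona genes, from 12.5 to 0.384 FPKM, and Lhx8 from 3.45 to 0.152 FPKM. The 2 genes called higher were the oocyte maturation genes Omt2a and Omt2b. Omt2a held 773, 893, 815 and 867 FPKM in the GV libraries and 10345, 4866, 6476 and 6802 FPKM in the 2-cell libraries, and Omt2b went from 1239 to 7404 FPKM. These are abundant in both stages, and the gain was 8.51-fold for Omt2a.

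The subcortical maternal complex, a protein assembly under the egg membrane that embryos need for their first cleavages, was lost throughout at the level of RNA. All 8 measured genes of 10 listed were called lower, beside 19.0% of all genes, with a median of −4.25. Nlrp5, also known as Mater, held 29.2, 25.8, 20.9 and 24.9 FPKM in GV oocytes and 0.713, 1.85, 1.21 and 1.55 FPKM in 2-cell embryos. Tle6 (97.1 to 1.41 FPKM), Ooep (1291 to 33.9 FPKM), Khdc3 (414 to 10.0 FPKM) and Padi6 (118 to 2.71 FPKM) had differences between −5.32 and −4.98. The smallest difference was that of Zbed3, −2.80. RNA levels do not give the level of the proteins.

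Other oocyte Nlrp genes moved the same way, with 5 of 7 measured genes called lower (71.4%) and none higher (median −2.87). Over all genes 19.0% were called lower and 21.4% higher. Nlrp14 fell from 242 ± 30.7 to 8.44 ± 3.31 FPKM. Nlrp9c met neither rule at 19.0 and 16.3 FPKM, while Nlrp9a and Nlrp9b were called. Of further oocyte gene families, all 6 measured Oas1 genes were called lower, with differences from −5.38 for Oas1h (135 to 2.32 FPKM) to −1.34 for Oas1b (2.42 to 0.356 FPKM), and so were 14 of 17 measured Fbxw genes, among them Fbxw15 (292 to 9.57 FPKM). The 1 Fbxw gene called higher was Fbxw2 (0.0870 to 1.17 FPKM). Other families were mixed. Of 6 measured Pramef and Pramel genes 2 were called higher and 1 lower, and of 4 Oog genes 2 were called lower and none higher. Of 2 Rfpl4 genes Rfpl4b was called higher and Rfpl4 lower. Members of such families are similar in sequence, and how reads shared between copies were counted is not given in the sources used here.

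**Figure D3:**
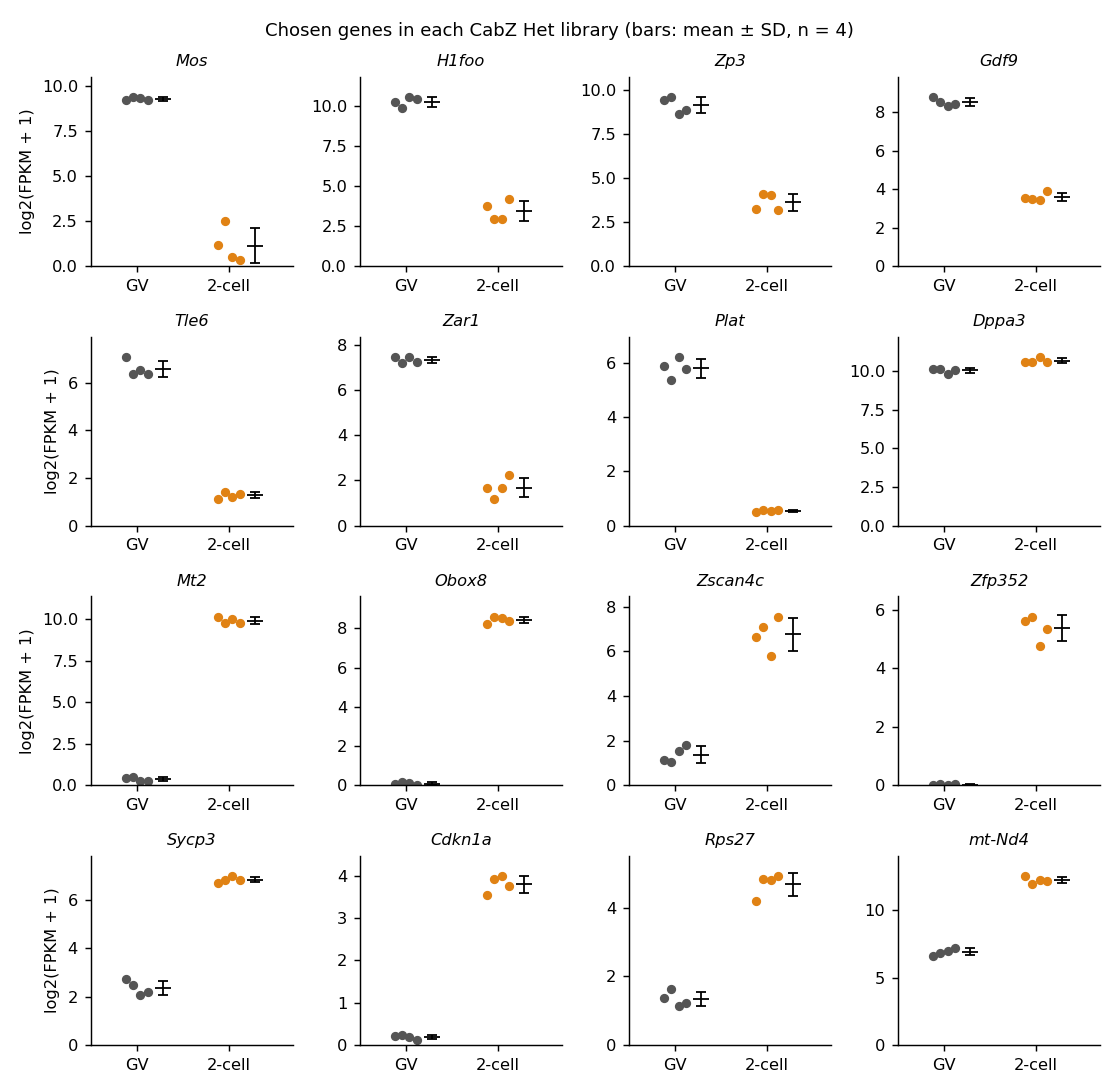
Level, as log2(FPKM + 1), of 16 genes in each CabZ Het library, each panel with its own y axis from 0, GV oocytes beside 2-cell embryos, as dots with the mean ± SD of 4 libraries. Mos, H1foo, Zp3, Gdf9, Tle6, Zar1 and Plat are lower in every 2-cell library than in every GV library, Dppa3 has the smallest difference of the 16, and Mt2, Obox8, Zscan4c, Zfp352, Sycp3, Cdkn1a, Rps27 and mt-Nd4 are higher in every 2-cell library.

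Genes of meiotic arrest, maturation and egg activation were less uniform, with 6 of 18 measured genes called lower and 1 higher (median −1.01). These are 33.3 and 5.56% of the list, beside 19.0 and 21.4% of all genes. Beside Mos, genes called lower were Bub1b of the spindle checkpoint (10.0 to 0.455 FPKM), the kinases Aurkc (30.9 to 4.39 FPKM) and Plk1 (14.7 to 2.33 FPKM), the cyclin Ccnb2 and Fbxo43, also known as Emi2, an inhibitor of the anaphase-promoting complex. Cyclin B1 (Ccnb1, 236 and 141 FPKM), Wee2 (20.5 and 19.8 FPKM) and Cdc20 (16.7 and 14.9 FPKM) met neither rule. The gene called higher was Sycp3, a protein of the synaptonemal complex of meiotic chromosomes, which held 5.58, 4.52, 3.19 and 3.57 FPKM in GV oocytes and 105, 114, 126 and 113 FPKM in 2-cell embryos.

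In the storage, tailing and decay of maternal mRNA, 9 of 24 measured genes were called lower and 3 higher (median −0.61). These are 37.5 and 12.5% of the list, beside 19.0 and 21.4% of all genes. Zar1, which binds and keeps maternal mRNA, went from 161 ± 15.2 to 2.32 ± 1.02 FPKM and Zar1l from 47.7 to 1.76 FPKM. Cpeb1, which controls cytoplasmic polyadenylation, went from 3.00 to 0.104 FPKM, and the poly(A)-binding proteins Pabpn1l and Pabpc1l from 85.8 to 1.02 FPKM and from 1.62 to 0.0357 FPKM. The general poly(A)-binding protein Pabpc1 was called higher, with 0.0836 to 0.289 FPKM in the GV libraries and 6.41, 8.03, 6.76 and 7.19 FPKM in 2-cell embryos. Btg4, the adaptor that brings the deadenylase to maternal mRNA, was not called at 81.1 ± 7.05 against 54.2 ± 22.9 FPKM, and the deadenylase Cnot7 stood at 37.3 and 31.8 FPKM. Plat, the tissue plasminogen activator whose mRNA is stored in the oocyte and polyadenylated at maturation, held 58.2, 40.3, 73.1 and 52.9 FPKM in GV oocytes and 0.400, 0.471, 0.449 and 0.498 FPKM in 2-cell embryos.

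Maternal chromatin factors were split. Of 22 measured genes 6 were called lower (27.3%), 1 was called higher (4.55%) and 15 met neither rule (median −0.43). Over all genes 19.0% were called lower and 21.4% higher. The maintenance DNA methyltransferase Dnmt1 went from 12.1 ± 2.46 to 0.338 ± 0.0783 FPKM, its partner Uhrf1 from 6.30 to 0.439 FPKM and the imprint guardian Zfp57 from 114 to 14.0 FPKM. Npm2, the chaperone that decondenses sperm chromatin, went from 57.0 ± 7.20 to 11.7 ± 3.54 FPKM. Dppa3, which shields the maternal genome from demethylation, held 1104, 1137, 901 and 1087 FPKM in the GV libraries and 1544, 1538, 1915 and 1540 FPKM in the 2-cell libraries, a 1.55-fold difference that stayed under the rule although the groups did not overlap. The H3.3 genes H3f3a and H3f3b stood at 66.1 and 73.3 FPKM and at 342 and 351 FPKM. The gene called higher was the demethylase Kdm5b, from 0.134 to 1.87 FPKM. Cabin1 and Hira had means under 1 FPKM in both stages, 0.119 and 0.322 FPKM for Cabin1 and 0.00913 and 0.233 FPKM for Hira, so the minimum left them uncalled. Their spans are long (118230 and 93273 bp), and for both every 2-cell library was above every GV library. Estimated reads in a GV and a 2-cell library were 117 to 209 and 215 to 443 for Cabin1. For Hira they were 2 to 21 and 143 to 199.

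**Figure D4:**
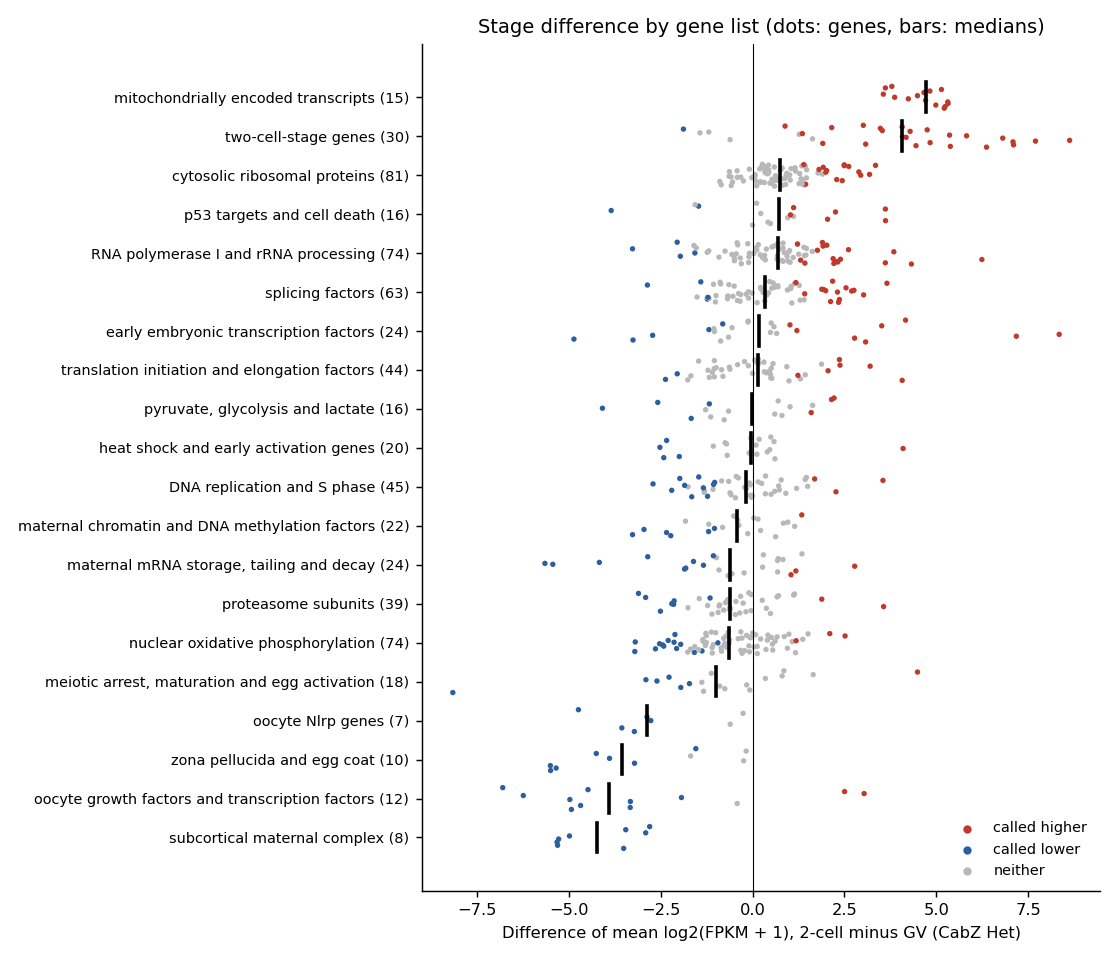
Difference of log2(FPKM + 1), 2-cell minus GV, of each tested gene of 20 lists, with 1 dot per gene (red called higher, blue called lower, grey neither) and a bar at the list's median. Medians run from −4.25 for the subcortical maternal complex to 4.71 for the mitochondrially encoded transcripts, and 8 of the 20 lie above 0.

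Most measured genes of the 2-cell list were called higher. Of 53 listed genes only 31 stood in both tables, and 30 were measured. Of these 24 were called higher (80%) and 1 was called lower (3.33%), beside 21.4 and 19.0% of all genes. The median was 4.07. This median was the same with the 7 genes at or under 3 reads in every GV library put at their bound. The listed genes not in both tables include many that the GV table does not hold, so the count does not cover them. Zscan4c, a zinc finger gene of the Zscan4 cluster on chromosome 7, held 1.16, 1.07, 1.88 and 2.54 FPKM in GV oocytes and 98.7, 134, 53.7 and 187 FPKM in 2-cell embryos. Its copy Zscan4d held 4.56, 3.01, 4.48 and 2.78 FPKM and then 117, 124, 59.9 and 116 FPKM. Both genes were above background in GV oocytes, with at least 57 reads of Zscan4c and 142 of Zscan4d in each library, and 2-cell replicate 3 was the lowest for both. Zscan4f went from 0.520 to 219 FPKM. Reads of the near-identical copies may be split between them, so the values of single copies are uncertain.

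The bases before Zscan4c and Zscan4d are shown because the pair changed together, and the letters TATAAA of the TATA box and AAGGTCA, which orphan nuclear receptors such as Nr5a2 bind, searched on both strands, are in capitals. The stretches are chr7:11005495-11005744 on the plus strand for Zscan4c and chr7:11166149-11166398 on the minus strand for Zscan4d, 250 bases before the RefSeq starts of GRCm38.p6, each written 5′ to 3′.
Zscan4c: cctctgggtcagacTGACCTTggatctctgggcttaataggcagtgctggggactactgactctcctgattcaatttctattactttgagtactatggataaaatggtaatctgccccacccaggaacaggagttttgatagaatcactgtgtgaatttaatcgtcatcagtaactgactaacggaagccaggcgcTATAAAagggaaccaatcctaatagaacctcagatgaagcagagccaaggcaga
Zscan4d: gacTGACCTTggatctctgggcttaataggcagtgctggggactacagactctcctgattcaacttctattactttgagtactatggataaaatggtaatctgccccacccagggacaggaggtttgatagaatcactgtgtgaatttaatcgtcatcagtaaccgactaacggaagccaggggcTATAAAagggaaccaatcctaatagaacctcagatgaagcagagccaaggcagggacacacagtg
The stretches had the same base in 232 of 261 aligned columns (88.9%). These columns include the ends where the stretches run past each other, because the RefSeq starts of the copies are placed differently. The 88.9% therefore understates how alike the shared part is. TATAAA stood 54 bases before the start of Zscan4c and 65 before that of Zscan4d, and AAGGTCA, read on the opposite strand, 236 and 247 bases before it. Of promoters of this length, 7.13% of all 4445, 7.86% of those called higher and 7.67% of those called lower held TATAAA, and 3.01%, 4.25% and 3.38% held AAGGTCA.

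Zfp352, a zinc finger gene read in early embryos, had 0 to 2 reads in a GV library and 1438 to 2940 reads in a 2-cell library. Its values were 49.0, 53.7, 26.2 and 39.5 FPKM in 2-cell embryos. No fold is given, because the GV libraries lay under the floor of 3 reads. The stretch before its start, chr4:90218570-90218819 on the plus strand of GRCm38.p6, is shown for its repeats of GGATTA, the letters bound by the homeobox factors of the Otx and Obox kind, searched on both strands and given in capitals.
Zfp352: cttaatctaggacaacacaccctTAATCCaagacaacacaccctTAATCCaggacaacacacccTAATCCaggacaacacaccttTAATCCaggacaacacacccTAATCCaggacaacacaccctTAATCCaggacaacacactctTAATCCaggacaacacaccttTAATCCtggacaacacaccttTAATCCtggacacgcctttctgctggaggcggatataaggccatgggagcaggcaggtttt
It held 9 matches between 227 and 61 bases before the start, all on the opposite strand, and was the 1 promoter of 4445 with 9 or more. At least 1 match of GGATTA stood in 8.29% of promoters of genes called higher, 5.86% of those called lower and 6.05% of all.

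Other multicopy 2-cell genes showed the same split between stages. Tdpoz1, of a family of BTB-domain genes on chromosome 3, went from 0.107 ± 0.0642 to 18.1 ± 4.43 FPKM, Usp17lb, of a family of deubiquitinating enzymes, from 0.0651 to 122 FPKM, and Trim43c from 0.732 to 19.3 FPKM. Eif1a, a translation initiation factor on chromosome 18, held 0.243, 0.245, 0.137 and 0.164 FPKM in GV oocytes and 19.0, 21.2, 18.1 and 18.3 FPKM in 2-cell embryos, and the related Gm5662 went from 1 to 3 reads in a GV library to 5806 to 8263 reads in a 2-cell library. Gm5039, another of the Eif1a-like copies, went from 1.40 ± 0.359 to 20.8 ± 10.4 FPKM. The gene called lower was AA792892 (18.1 to 4.32 FPKM), a call that was lost without GV replicate 2, 2-cell replicate 1 or 2-cell replicate 3.

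The largest gains outside that list included Mt2, a metallothionein that binds zinc and copper, which had 2 to 4 reads in each GV library and 1143, 865, 1037 and 866 FPKM, or 6219 to 8225 reads, in the 2-cell libraries. Obox8, an oocyte and embryo homeobox gene, had 0 to 3 reads in GV oocytes and 298, 386, 374 and 327 FPKM in 2-cell embryos. Rfpl4b went from 0.708 ± 0.422 to 427 ± 103 FPKM. Of the 12 largest gains 9 belonged to gene models and pseudogenes, with Gm12625, B020004C17Rik and Obox3-ps2 first. Gm12625 had at most 5 reads in a GV library and 3355 to 4063 reads in a 2-cell library. By annotation, genes called higher were protein-coding in 73.1% and pseudogenes in 15.6% of cases, against 77.7% and 11.3% of genes called lower and 74.1% and 17.4% of all measured genes.

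Within the Obox family the copies went both ways. Of 14 measured members 9 were called higher and 3 lower. Over all genes 21.4% were called higher and 19.0% lower. Obox2 held 1108, 1190, 1292 and 1235 FPKM in GV oocytes and 60.3, 26.9, 30.2 and 54.2 FPKM in 2-cell embryos, and Obox1 (35.4 to 2.94 FPKM) and Obox7 (130 to 19.7 FPKM) were also lower. Obox5 met neither rule at 408 and 282 FPKM. Obox8, Obox6 (0.146 to 168 FPKM), Obox3 (0.0119 to 6.01 FPKM) and 6 copies annotated as Obox3 pseudogenes were higher.

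Of 24 measured early embryonic transcription factors 8 were called higher (33.3%) and 5 lower (20.8%), beside 21.4 and 19.0% of all genes (median 0.19). The higher ones included Klf4 (0.415 to 11.2 FPKM), Gabpa of the Ets family (0.0373 to 18.0 FPKM), Dppa4 (2.65 to 40.9 FPKM), Sox2 (0.131 to 1.79 FPKM) and Tbx3. Pou5f1, the pluripotency factor also called Oct4, stood at 4.56 and 1.72 FPKM and met neither rule. Nr5a2, an orphan nuclear receptor, had means of 0.116 and 0.415 FPKM, under the minimum, although the groups did not overlap. Heat shock genes, of which the Hspa1 genes are known as early products of the zygotic genome, gave 1 higher (5%) and 4 lower (20%) of 20 measured (median −0.04). Hspb1 went from 4.27 ± 1.47 to 88.9 ± 22.9 FPKM, Hspa8 from 90.4 to 15.9 FPKM and Dnajb1 from 57.2 ± 7.39 to 9.12 ± 1.22 FPKM. Hspa1a was listed at 0.142 ± 0.182 and 0.966 ± 0.405 FPKM and Hspa1b at 1.09 and 2.39 FPKM, neither of them called. Hspa1a was under the minimum, although its groups did not overlap.

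Of 74 measured genes of RNA polymerase I and rRNA processing, which make ribosomes, 17 were called higher and 4 lower (median 0.69). These are 23.0 and 5.41% of the list, beside 21.4 and 19.0% of all genes. The lower count was 7 without GV replicate 2. Nop16, a nucleolar assembly factor of the large subunit, held 0.0272, 0.168, 0.0153 and 0.0316 FPKM in GV oocytes and 61.0, 101, 116 and 54.9 FPKM in 2-cell embryos. The polymerase subunit Polr1c went from 1.83 to 56.5 FPKM, Taf1d from 4.67 to 70.0 FPKM and Rrs1 from 0.143 to 15.9 FPKM, while Noc4l fell from 54.8 to 4.89 FPKM. Nucleolin (Ncl) met neither rule at 43.6 ± 13.4 and 29.8 ± 5.54 FPKM, and Fbl, the rRNA methyltransferase fibrillarin, had means under 1 FPKM (0.0538 and 0.586). The groups of Fbl did not overlap, with 1 to 12 reads in a GV library and 28 to 65 in a 2-cell library.

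Of 81 measured genes for cytosolic ribosomal proteins 15 were called higher and none lower, with a median of 0.76 and 68 of 81 differences above 0. The 15 are 18.5% of the measured genes, beside 21.4% of all genes. Rps27 held 1.57, 2.09, 1.22 and 1.34 FPKM in GV oocytes and 17.2, 27.5, 27.1 and 29.3 FPKM in 2-cell embryos. Rps19 held 12.2, 12.9, 10.4 and 11.1 FPKM and then 40.4, 44.9, 56.6 and 47.1 FPKM. Its 4.05-fold difference was just past the rule, and the call was lost without GV replicate 3 or 4 or 2-cell replicate 3. The share of a library's reads on these genes went from 0.561 to 0.663% in GV oocytes up to 1.20 to 1.57% in 2-cell embryos. Processed pseudogenes of ribosomal protein genes can share their reads.

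Translation factors gave 6 higher (13.6%) and 2 lower (4.55%) of 44 measured (median 0.14). Eif4ebp1, an inhibitor of cap binding, stood at 0.155 and 10.1 FPKM and Eif1b at 125 and 23.6 FPKM. Splicing factors gave 15 higher (23.8%) and 4 lower (6.35%) of 63 measured (median 0.33). The higher ones included 6 Srsf genes, which code for serine- and arginine-rich splicing regulators, among them Srsf7 (6.75 to 52.5 FPKM), as well as Lsm8 of the U6 particle (1.59 ± 0.237 to 32.1 ± 6.17 FPKM). Lsm3, which is shared by nuclear and cytoplasmic Lsm rings, went from 70.1 ± 3.33 to 8.83 ± 1.24 FPKM. Proteasome subunits gave 2 higher (5.13%) and 7 lower (17.9%) of 39 measured (median −0.62). Over all genes 21.4% were called higher and 19.0% lower. Psmb10, a subunit of the immunoproteasome, went from 0.461 ± 0.139 to 16.9 ± 5.72 FPKM and the inhibitor Psmf1 from 21.8 to 1.66 FPKM. The higher count of the proteasome list was 1 without GV replicate 2, 2-cell replicate 2 or 2-cell replicate 3.

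All 15 mitochondrially encoded transcripts were called higher, beside 21.4% of all genes, with a median of 4.71 and a range from 3.56 to 5.32. They took 0.391 to 0.474% of a GV library's reads and 8.99 to 12.9% of a 2-cell library's reads. mt-Nd4, a subunit of complex I, held 98.2, 114, 128 and 150 FPKM in GV oocytes and 5939, 4011, 4978 and 4762 FPKM in 2-cell embryos. In CabZ KO libraries the same share was 0.187 to 0.342% in GV oocytes and 2.48 to 5.09% in 2-cell embryos. Since this share is large, all other genes of the 2-cell libraries are scaled down by it, and with mitochondrial genes left out of the totals 1908 genes were higher and 1393 lower. Mitochondrial transcripts carry short poly(A) tails, and the part of poly(A) capture in the difference was not tested.

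Of 74 measured nuclear genes for oxidative phosphorylation 3 were called higher and 14 lower (median −0.65, 50 of 74 differences below 0). The 14 are 18.9% of the list, close to the 19.0% of all genes called lower, and the 3 are 4.05%, beside 21.4% called higher. Genes called lower included Ndufa8 (13.9 ± 0.820 to 0.644 ± 0.319 FPKM) and 8 other subunits of complex I, the complex II genes Sdha, Sdhc and Sdhd (54.7 to 5.12 FPKM for Sdhd) and Uqcrc2. Cox8a, of cytochrome c oxidase, was called higher (91.0, 101, 62.5 and 85.2 FPKM against 464, 469, 500 and 505 FPKM). Of 16 measured genes of pyruvate, glycolysis and lactate 3 were called higher (18.75%) and 4 lower (25%) (median −0.03). Ldhb, the lactate dehydrogenase of oocytes, fell from 336 ± 34.8 to 19.0 ± 4.09 FPKM, while Mpc1 and Mpc2, which carry pyruvate into mitochondria, went from 5.24 to 26.7 FPKM and from 4.21 to 23.7 FPKM.

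In DNA replication and S phase 3 genes were called higher (6.67%) and 10 lower (22.2%) of 45 measured (median −0.17), beside 21.4 and 19.0% of all genes. Cyclin E1 (Ccne1), which starts S phase, held 0.789, 0.773, 0.632 and 0.440 FPKM in GV oocytes and 14.5, 22.2, 19.8 and 17.6 FPKM in 2-cell embryos, and its kinase Cdk2 and the licensing inhibitor Gmnn were the other higher ones. Lower ones included the clamp loader Rfc3 (14.9 to 1.47 FPKM) and the helicase subunits Mcm4 (6.17 to 1.27 FPKM) and Mcm5 (2.75 to 0.614 FPKM, a call that was lost without 2-cell replicate 3). Pcna met neither rule at 28.6 ± 4.26 and 40.7 ± 2.49 FPKM.

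Of 16 measured p53 targets and cell death genes 6 were called higher (37.5%) and 2 lower (12.5%), beside 21.4 and 19.0% of all genes (median 0.72). Cdkn1a, the p21 inhibitor of cyclin-dependent kinases, held 0.156, 0.176, 0.129 and 0.0862 FPKM in GV oocytes and 10.6, 14.1, 14.9 and 12.6 FPKM in 2-cell embryos. Mcl1, which blocks cell death, went from 0.504 to 17.4 FPKM and Ccng1 from 0.417 to 4.98 FPKM, whereas the oocyte's Bcl2l10 fell from 1418 ± 226 to 108 ± 57.2 FPKM. Trp53 itself (2.09 and 2.15 FPKM) and its inhibitor Mdm2 (2.98 ± 0.378 and 4.57 ± 0.461 FPKM) met neither rule, nor did the stress factor Ddit3 (24.6 ± 3.18 and 8.42 ± 4.51 FPKM).

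The labels were set against markers. The GV libraries held the oocyte genes Zp1 to Zp3, Gdf9, Bmp15, Oosp1 and H1foo at means of 79.4 FPKM or more, and the 2-cell libraries held Zscan4c, Zscan4d, Zfp352 and Tdpoz1 at means of 18.1 FPKM or more. Of 18 granulosa and cumulus markers 7 stood in both tables, none of them at 1 FPKM, and the list took 0.00433 to 0.00586% of GV reads and 0.00458 to 0.00940% of 2-cell reads. The sperm and spermatid list gave Ldhc called higher (0.410 to 2.41 FPKM) and Prm2 called lower (2.73 to 0.355 FPKM). Listed for 2-cell embryos alone, Tnp1 averaged 5.53 FPKM (25 to 43 reads), while Prm3 had 0 to 1 and Tnp2 0 to 4 reads. Since the origin of these embryos is not given, these values do not tell sperm RNA from the embryo's own. Of paternally expressed genes, 3 of 17 were measured. Zrsr1 was listed at 0.0349 and 6.60 FPKM (higher), Snrpn at 0.193 and 1.05 FPKM (higher) and Mest at 6.59 and 0.660 FPKM (lower). Of 9 blood and immune markers only Cd68 stood in both tables, and it met neither rule.

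The 2-cell table also held 841 genes averaging 1 FPKM or more that the GV table does not list, beside 58 in the other direction. Among them were Trim43b (87.8, 96.9, 91.0 and 65.5 FPKM), Klf5 (3.41, 2.93, 2.33 and 2.98 FPKM), Usp17la (2.74, 3.10, 1.66 and 4.72 FPKM) and the Y-linked Eif2s3y (2.04, 0.419, 1.87 and 0.789 FPKM). Reads of Eif2s3y (61 to 297) and Uty (114 to 298) stood in each of the 4 2-cell libraries. So did reads of the Y-linked Usp9y (43 to 166), Zfy1 (65 to 160), Zfy2 (12 to 111) and Ddx3y (2 to 49). These Y-linked reads bear on whether the embryos were fertilised, which was not tested. The haemoglobin genes Hba-a1 and Hba-a2 were listed there at 45.3 to 97.6 FPKM and 77.8 to 148 FPKM. Immune markers went both ways. Ptprc, the marker of white blood cells, had at most 1 read and C1qa had none. Cd74 had 151 to 671 reads (mean 5.65 FPKM) and Lyz2 had 0 to 29 reads. Genes in 1 table alone took 0.0445 to 0.0496% of GV reads and 1.95 to 2.48% of 2-cell reads.

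The same rule was applied to other control libraries, which the first comparison does not use, namely 4 GFP 2-cell libraries against 4 ZH Het GV libraries. The GFP embryos came from oocytes that were injected, matured in culture and activated without sperm, and their table was normalised apart from that of the ZH oocytes, so stage, origin and table cannot be told apart there either. In that pair 503 of 6040 genes were called higher (8.33%) and 2125 lower (35.2%). Of 1464 genes called lower in CabZ Het embryos and present in all 4 tables, 805 had the same call (55.0%) and 6 the opposite one. Of 1582 genes called higher, 299 had the same call (18.9%), 33 had the opposite one and 897 were under 1 FPKM in both other groups. Both shares stood above the share of measured genes with that call in the other pair, 35.2 and 8.33%. The bases differ, because the first 2 shares also count genes under 1 FPKM in both other groups. Of the genes called lower 1341, and of those called higher 685, reached 1 FPKM there.

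Among the 2-cell genes called higher, 21 of the 23 present there were also called higher in GFP embryos. Zscan4c held 1.66, 1.22, 0.588 and 1.27 FPKM in ZH Het oocytes and 101, 163, 160 and 184 FPKM in GFP embryos. Mt2 went from 0.0732 ± 0.113 to 75.9 ± 15.6 FPKM and Obox8 from 0.0292 to 8.15 FPKM. Same calls as lower were given to 6 of 7 genes of the zona and egg coat, 8 of 9 oocyte growth and transcription factors, 8 of 9 genes of mRNA storage and 9 of 10 replication genes. In other oocyte lists they were given to 5 of 8 genes of the subcortical maternal complex and 4 of 6 of meiotic arrest, maturation and egg activation. They were also given to 3 of 6 maternal chromatin factors and 1 of 5 oocyte Nlrp genes. Over all genes with a CabZ Het call and present in all 4 tables, the same call was given to 55.0% of those lower and 18.9% of those higher. Mos went from 412 ± 40.6 to 3.53 ± 1.03 FPKM and Zp3 from 474 ± 36.6 to 1.40 ± 0.392 FPKM.

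Of the genes called higher in CabZ Het embryos, 2 of 15 ribosomal protein genes, 2 of 16 of RNA polymerase I and rRNA processing and 1 of 15 splicing factors were called higher in GFP embryos. Over all genes called higher in CabZ Het embryos, whether or not they reached 1 FPKM in the other pair, the share was 18.9%. Over the measured genes of the other pair alone it was 8.33%. Rps19 stood at 3.99 ± 0.784 FPKM in ZH Het oocytes and 1.97 ± 0.712 FPKM in GFP embryos, Nop16 at 0.10 and 2.16 FPKM and Cdkn1a at 0.102 and 0.956 FPKM. Btg4 and Dppa3, which met neither rule in CabZ embryos, stood at 43.6 and 118 FPKM and at 786 and 2453 FPKM, and met neither rule there. Opposite calls included Mcts2 (2.56 to 159 FPKM in the CabZ line, 1.67 to 0.315 FPKM in the other controls), the mediator subunit Med29 and the proteasome subunit Psmd7. These 2 tables hold no mitochondrially encoded genes.

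**Figure D5:**
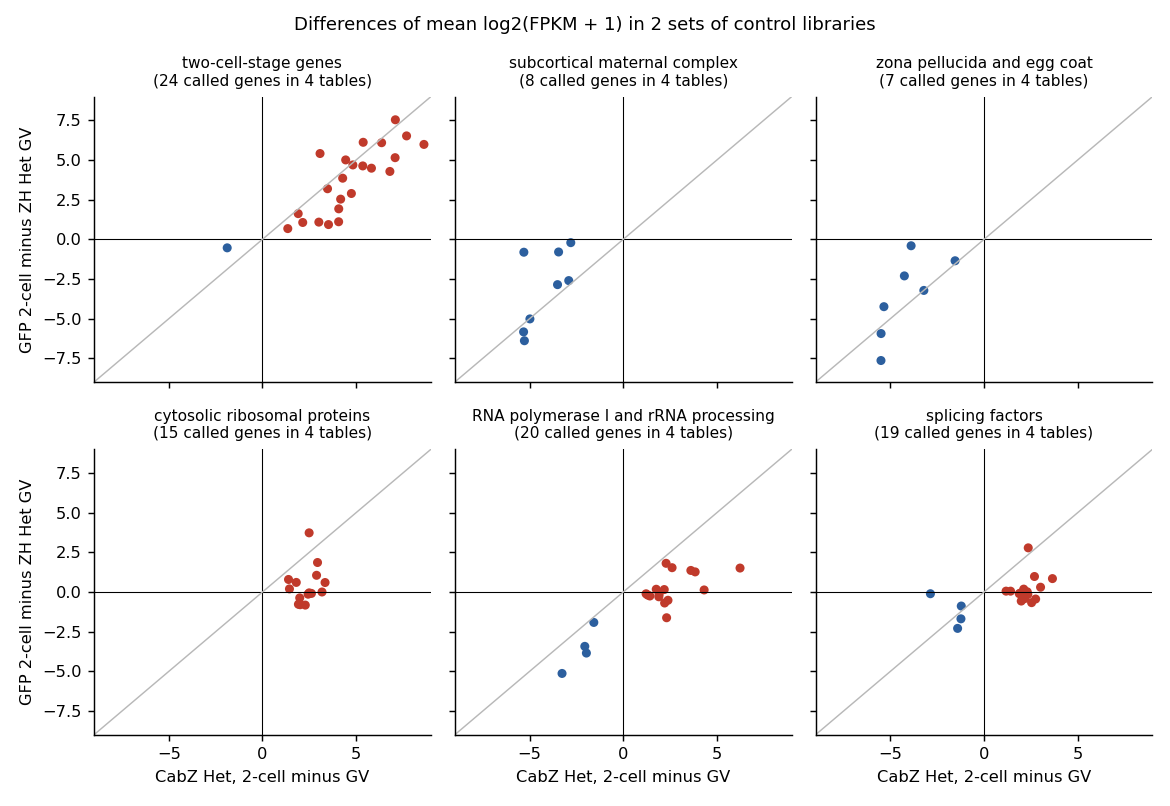
Difference of log2(FPKM + 1), 2-cell minus GV, in CabZ Het libraries (x axis) and between GFP 2-cell and ZH Het GV libraries (y axis) for those genes of 6 lists that were called between the CabZ Het stages (red higher, blue lower) and are listed in all 4 tables, with a grey line where both differences are equal. In the 2-cell list 1 gene lies below 0 on both axes and the others lie above 0 on both, the oocyte genes lie below 0 on both, and the ribosomal protein genes lie above 0 on the x axis and on either side of 0 on the y axis.

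Open chromatin in the GV oocyte was read from ATAC-seq peaks of 3 CabZ Het libraries, each of about 100 pooled oocytes, with 43399, 67074 and 111327 peaks. A gene start was counted as open where at least 2 of the 3 libraries held a peak within 500 bp. This was so for 463 of 1526 genes called lower (30.3%, 95% Wilson interval 28.1 to 32.7), 366 of 1704 nuclear genes called higher (21.5%, 19.6 to 23.5) and 26.2% of all measured genes. The intervals cover counting error over genes only, and the 3 libraries differed more than the sets did, with 15.1, 31.1 and 51.1% for genes called lower and 11.8, 22.5 and 39.8% for those called higher. Among protein-coding genes the shares were 33.0% of those called lower, 24.1% of those called higher and 32.2% of those with neither call. At a GV level of 1 to 10 FPKM they were 29.0, 26.7 and 32.1%, and at 10 to 100 FPKM 37.9, 21.2 and 34.3%. The set called higher held 52 genes in the second band.

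By list, an open start stood at 9 of 12 oocyte growth and transcription factors, 4 of 8 genes of the subcortical maternal complex, 9 of 18 of meiotic arrest, maturation and egg activation, 4 of 10 of the zona and egg coat, 9 of 24 of mRNA storage, 7 of 22 maternal chromatin factors and 1 of 7 oocyte Nlrp genes. It stood at 2 of 30 2-cell genes and 4 of 24 early embryonic transcription factors. Over all measured genes the share was 26.2%. Open starts were not particular to oocyte lists, with 22 of 45 replication genes, 7 of 16 p53 targets and cell death genes and 19 of 44 translation factors. Counts were 8 of 20 for heat shock genes, 32 of 81 for ribosomal protein genes and 16 of 74 for RNA polymerase I and rRNA processing. No library held a peak at Zscan4c, Zfp352 or Obox8, and Mos and Nlrp5 had one in library C alone. The study kept unique ATAC alignments only, so starts of near-identical copies may lack a peak for that reason. This was not tested, and a missing peak at such a gene does not show closed chromatin. Zp3 had peaks in all 3 libraries, with a fold enrichment over the genome background of 256, 231 and 438, while the peaks of H1foo reached at most 4.69. The Zp3-Cre transgene that these oocytes carry contains Zp3 promoter sequence, and its part in the Zp3 peak was not tested.

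Promoters of genes called lower had a lower median number of CpG dinucleotides than those with neither call, which is given as a description with no test. Over 300 bases around the RefSeq start, median GC content was 59.7% for 941 genes called higher, 57.7% for 887 called lower and 60.3% for 2617 with neither call. The median number of CpG dinucleotides was 20, 17 and 22, and promoters with 5 or fewer made up 10.6, 16.5 and 7.15%. The median ratio of observed to expected CpG was 0.775, 0.682 and 0.819. A RefSeq promoter within 500 bp of the start in the tables was found for 4445 of 8004 measured nuclear genes, so multicopy genes without one are not covered.

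The stage difference of CabZ Het libraries was last set against that of CabZ KO libraries, which asks where the transition differs when both Cabin1 alleles of the female are open to deletion. Since each genotype difference is taken within 1 table, the effect of the table cancels, and this interaction of stage and genotype could be tested with limma. Cabin1 itself held 0.101, 0.0891, 0.159 and 0.128 FPKM in Het GV libraries and 0.0482, 0.0231, 0.0125 and 0.0129 FPKM in KO GV libraries. In 2-cell libraries it held 0.332, 0.229, 0.274 and 0.455 FPKM in Het and 0.181, 0.150, 0.142 and 0.0640 FPKM in KO. The Het libraries were above the KO libraries at both stages, at low values that include exons outside the deletion.

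Of 7000 genes averaging 1 FPKM or more over the 16 libraries, the difference from GV to 2-cell was higher in KO than in Het for 1011 (14.4%) and lower for 1382 (19.7%), at a limma adjusted p under 0.05 and an interaction over 1 on the log2 scale. Mos held 28.7, 6.83, 14.9 and 18.9 FPKM in KO 2-cell libraries, above the 0.251 to 4.69 FPKM of Het, with an interaction of 3.02 ± 0.57 (SE, limma adjusted p = 0.000479). Interactions were also higher for H1foo (2.13 ± 0.46, limma adjusted p = 0.00128), Zar1 (2.06), Gdf9 (2.06), Bmp15 (2.02), Npm2 (1.60) and Plat (1.48). Mos, H1foo and Zar1 are among the largest losses in Het, and a choice by that size ties the direction of the interaction to it. By list, the interaction was higher for 5 of 8 genes of the subcortical maternal complex, 5 of 10 of the zona and egg coat, 7 of 11 oocyte growth and transcription factors, 5 of 7 oocyte Nlrp genes and 8 of 21 of mRNA storage, and lower for none of these but 1 of mRNA storage, Pabpc1. In other lists of oocyte genes it went both ways. It was higher for 1 (Mos) and lower for 5 (Ccnb1, Aurka, Cdk1, Sycp3 and Tex19.1) of 18 genes of meiotic arrest, maturation and egg activation, and higher for 2 and lower for 2 of 20 maternal chromatin factors. Zp3 was not among them (0.16 ± 0.44, limma adjusted p = 0.774).

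Among genes for growth the interaction was mostly lower in KO where called. The interaction was lower for 56 of 79 ribosomal protein genes and higher for 1 (median −1.37), and lower for 44 of 66 genes of RNA polymerase I and rRNA processing and higher for none (median −1.24). Rps19 held 8.70 to 14.0 FPKM in KO 2-cell libraries, below the 40.4 FPKM of the lowest Het library (−1.88 ± 0.22, limma adjusted p = 2.02e-05). Translation factors (17 lower, 1 higher of 43), splicing factors (19 and 1 of 57) and proteasome subunits (19 and 0 of 39) were mostly lower where called. Of 29 2-cell genes 7 were lower and 1 higher (median −0.17). Over all 7000 genes the interaction was lower for 19.7% and higher for 14.4%, so the lower count of 2-cell genes is near the share of all genes. Neither Zscan4c (−0.64 ± 0.76, limma adjusted p = 0.505), Zscan4d (−1.23 ± 0.56, limma adjusted p = 0.0768) nor Zfp352 (−0.09 ± 0.41, limma adjusted p = 0.861) passed the test. KO 2-cell libraries held 5818821 to 6329599 reads, fewer than Het, and had less of their reads on mitochondrial genes, as given above. The part of either in these differences was not tested.

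The largest single interactions were those of Gtsf1l (−5.45 ± 0.34, limma adjusted p = 2.03e-07), a relative of the piRNA pathway gene Gtsf1, and of the gene model Gm8701 (5.80 ± 0.57, limma adjusted p = 7.21e-06). Gtsf1l held 59.0, 51.1, 103 and 77.8 FPKM in Het 2-cell libraries and 8.33, 5.83, 7.88 and 9.62 FPKM in KO 2-cell libraries, after 3.40 to 5.66 FPKM in Het and 19.3 to 38.2 FPKM in KO GV libraries. Het libraries thus gained Gtsf1l from GV to 2-cell and KO libraries lost it. Gm8701 held 30.0 to 130 FPKM in KO 2-cell libraries and at most 1.88 FPKM in those of Het. Gm4302, Gm4305, Gm26917 and Gm15767 followed among the higher and Mcts2, Znhit3 and Platr17 were among the lower.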

How the data were processed

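Smart-seq2 v4 RNA-seq libraries and ATAC-seq peak lists were taken as deposited. According to the methods, the authors used TrimGalore for trimming, STAR (2.5.3a in the submitters' processing notes) for alignment to GRCm38/mm10, and Partek Flow, and computed FPKM. The FPKM deposited by the authors in the ZH and GFP tables divide reads by the whole gene span, with 0.01 or 0.001 added. The deposited CabZ tables hold score values that the authors' software had divided by the span a second time, as the values show. FPKM were therefore restored by subtracting 0.01, multiplying by the gene's length and dividing by the library's own reads on listed genes. Reads per gene were estimated from the smallest step in each library. Among low values 82.9 to 86.9% lay within 0.1 of a whole number, so numbers of reads are estimates and no count test was run. Repeated symbols (2 in the GV and 4 in the 2-cell table) were left out. ATAC-seq reads were aligned by the authors with Bowtie 2.3, and MACS2 was run for each library. The fold enrichment (ratio over the genome background) was deposited with each peak, as were p-values and q-values as −log10 and a score, none of which was used here.

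The authors' comparison columns were not used where a table held any. The interaction of stage and genotype was fitted to log2(FPKM + 1) with limma 3.58.1 in R 4.3.3 over 16 libraries, with Benjamini-Hochberg adjustment over 7000 genes. Its scripts and the stage rule were tested on simulated data. Replicates are separate libraries. Nothing says that they came from separate females, so p-values measure the spread between these libraries. Replicate numbers did not pair samples (correlations of same-numbered deviations between −0.171 and 0.128).

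The members and the 25 gene lists were chosen with earlier results of these data known. Named genes are the 12 largest differences in each direction among called genes of at least 10 FPKM, a fixed set of oocyte, embryo and study genes, the largest called difference of each list in each direction, and the 5 largest interactions in each direction, of which 1 gene is not reported here. Further list members were named after their values were seen. Alternatives were other folds, minima, pseudocounts and scalings, and leaving out each library. Promoter sequences are from RefSeq on GRCm38.p6. Python 3.11.15, pandas 2.3.3 and biopython 1.88 were used.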

Additional observations from a re-analysis of the deposited data

Results flagged for a closer look

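In 177 groups of 4 libraries (named genes and read shares of lists in either stage), 9 had a library far from the other 3 by Dixon's criterion, and chance alone gives about 1 in 20. In GV replicate 3, Gm813 was low at 684 FPKM, and the shares of reads on ribosomal protein genes (0.561%) and on nuclear oxidative phosphorylation genes (1.00%) were low. In GV replicate 2, Gm5039 was high at 1.94 FPKM. In 2-cell replicate 3, Dppa3 was high at 1915 FPKM, Zscan4d was low at 59.9 FPKM and the share of reads on maternal chromatin factors was high at 1.34%. In 2-cell replicate 4, Gdf9 was high at 14.1 FPKM and Ldhb was high at 25.1 FPKM. Without any 1 of these libraries the stage calls of Gm813, Gdf9, Zscan4d, Gm5039 and Ldhb held.

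The stage difference of 57 named genes differed between CabZ KO and CabZ Het by limma's interaction test. It was higher in KO for Gm8701 (5.80), Gm4302 (4.71), Gm4305 (4.29), Gm26917 (4.09) and Gm15767 (3.36), and lower for Gtsf1l (−5.45), Mcts2 (−4.50), Znhit3 (−4.19) and Platr17 (−3.49). Among oocyte genes it was higher for Mos (3.02), H1foo (2.13), Zar1 (2.06), Gdf9 (2.06), Bmp15 (2.02), Npm2 (1.60), Plat (1.48), Btg4 (1.38) and Oosp1 (1.22). It was lower for Rps19 (−1.88), Tdpoz1 (−1.82), Cdkn1a (−1.52), Eif1a (−1.28), Ncl (−1.23) and Obox3 (−1.10). Mos, H1foo and Zar1 were also among the largest losses in Het, and Cdkn1a and Eif1a had the largest gain of their lists. For these genes, too, the direction of the interaction is tied to the choice. Of the genes named for the size of their own stage difference in Het, which ties the direction of the interaction to the choice, 33 more differed. It was higher for E330017A01Rik (2.64), Ldhb (2.47), Gm813 (2.37), Glrx (2.303), Zp2 (2.01), Nlrp14 (1.94), Obox2 (1.86), Mest (1.81), Eif1b (1.61), Tle6 (1.56), Zp1 (1.38), Gja4 (1.29), Pabpn1l (1.28), Bcl2l10 (1.26) and Oas1h (1.25). It was lower for Gm12625 (−3.37), Nop16 (−3.14), Obox3-ps2 (−3.08), Zrsr1 (−3.06), Obox8 (−2.77), Rps27 (−2.25), Pabpc1 (−1.95), Gm2001 (−1.85), Mt2 (−1.84), Obox3-ps5 (−1.80), Lsm8 (−1.68), Mpc2 (−1.68), B020004C17Rik (−1.63), Psmb10 (−1.62), Ccne1 (−1.42), Sycp3 (−1.28), Ldhc (−1.15) and Gm9 (−1.15). The causes were not tested.

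In the 2-cell table alone, signal stood for Hba-a2 (mean 115 FPKM), Hba-a1 (68.9 FPKM), Trim43b (85.3 FPKM), Klf5 (2.91 FPKM) and Eif2s3y (1.28 FPKM), above the level that a count of 0 allows. The GV table does not list these genes, so no stage difference is given for them.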

How the results depend on the processing

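The 1719 genes called higher became 879 with a minimum of 5 FPKM and 2810 with none. The 1526 called lower became 2519 at 2-fold, 778 at 8-fold, 753 with a minimum of 5 FPKM and 3175 with none. With each library left out in turn they numbered 1697 to 1841 and 1507 to 1597. Other scalings, the values as deposited and the fold without the overlap rule kept both counts within 1.5 times. In the other control libraries the same calls were 26.6% (higher) and 73.0% (lower) at 2-fold without the overlap rule, and 22.9% (higher) when rescaled to the reads in each table, an alternative chosen after seeing the data. Open starts were 26.2% (higher) and 35.3% (lower) within 1000 bp, 46.7% and 58.2% for a peak in at least 1 of 3 libraries, and 24.1% and 33.0% for protein-coding genes alone, also chosen after seeing the data. With a mean of at least 5 FPKM the interaction was higher for 604 and lower for 859 genes, and with each library left out it was higher for 938 to 1085 and lower for 1229 to 1524. A replicate block within stage gave 1014 and 1366 genes and changed neither count by over 1.5 times. Same-numbered samples did not deviate together, so the numbers give no pairing.

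Of 770 values of 70 named called genes under the alternatives, 761 kept the call, and AA792892, Mcm5 and Rps19 lost it under some. Of 200 list medians 10 moved and 0 reversed. Depth limits genes of a few reads, for which no fold is given.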
